A study of Mus musculus with 6 samples.

Results

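Neutrophils store their antimicrobial proteins in granules that fill one after another while the cell matures in the bone marrow. The 31 genes described here are grouped by that order. They were taken from the table of 17854 genes by symbol and form 3 classes. The early azurophil class holds 5 genes of promyelocytes, the first granule-forming stage (*Mpo*, *Elane*, *Prtn3*, *Ctsg* and *Ms4a3*). The specific granule class holds 11 genes of myelocytes and metamyelocytes (*Fcnb*, *Camp*, *Ltf*, *Ngp*, *Lcn2*, *Chil3*, *Olfm4*, *Cd177*, *Pglyrp1*, *Hp* and *Lyz2*), and the mature class holds 15 genes of band cells and circulating neutrophils (*Ly6g*, *Retnlg*, *Padi4*, *Anxa1*, *Wfdc21*, *Ltb4r1*, *Fpr1*, *Fpr2*, *Csf3r*, *Trem1*, *Trem3*, *Stfa2l1*, *Stfa2*, *Hdc* and *Slpi*). The classes are an assignment by stage made for this comparison, and a gene need not be confined to its stage or to neutrophils. All 31 genes passed the filter on low counts.

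RNA was sequenced in bulk from Tomato+ cells of male C57BL/6 mice, with 3 libraries in each of 2 groups. The study gives the number of mice per group, but not whether each library came from its own mouse or from pooled cells. The spread between libraries of a group may therefore not reflect the spread between animals. The standard errors and adjusted p-values given below rest on the spread between libraries. The MSC-derived libraries (InjectPrrx) come from cells sorted out of repaired articular cartilage after *Prrx1*-lineage mesenchymal stromal cells (MSCs) of inguinal white fat had been injected into knees with osteoarthritis induced by cutting the anterior cruciate ligament. The endogenous libraries (NativePrrx) come from articular Tomato+ cells of *Prrx1-Cre; R26tdTomato* mice of like age and sex, for which no surgery or injection is described, so surgery, injection, host and cell origin cannot be told apart in this comparison. In both groups the label is tdTomato switched on by Cre under *Prrx1* regulation, which stays on in all descendants of a cell that once expressed Cre, and cells were gated on it after collagenase digestion. All samples are labelled as chondrocytes, the cells of cartilage. The labelled cell type was weak in the MSC-derived libraries: all 18 chondrocyte markers on a fixed list were lower there, with a summed level of 2915 to 3013 TPM (a level per transcript length, scaled to the same total in every library) against 45825 to 50346 TPM. *Prrx1* itself was at 4.61 ± 0.31 TPM (SD, n = 3) against 28.2 ± 8.81 TPM.

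In neutrophils the granule programme is known to be staged by transcription factors. PU.1 (gene *Spi1*) acts throughout the myeloid lineage, RUNX and C/EBP factors act on the early granule genes, and C/EBPε is needed for the specific granule proteins. The azurophil proteins myeloperoxidase and the serine proteases are made first and their transcripts are shut off before the specific granule proteins lactoferrin, cathelicidin and lipocalin-2 are made. Receptors for chemoattractants and the surface protein Ly6G come last, so that levels of the classes relative to each other give a coarse picture of stage in a pure neutrophil sample. In a bulk sample, fewer cells of a type and less RNA per cell cannot be told apart.

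The sequence upstream of the start site was looked up for the genes, as a description only. RefSeq promoter sequences (build GRCm38.p6, not the build used for the deposited counts) were found for 28 of the 31 genes, all except *Hp*, *Trem3* and *Wfdc21*. The 250 bases before the start were searched on both strands for 3 short motifs. These were TTGCNNAA for C/EBP factors, GAGGAA for PU.1 and TGTGGT for RUNX factors. The windows of 9 genes are printed 5′ to 3′ on the strand of the gene, with each match in capitals (as the reverse complement where it lies on the other strand), and no match overlaps another. Those of the 4 azurophil enzyme genes are shown because they share a pattern of matches.
Mpo: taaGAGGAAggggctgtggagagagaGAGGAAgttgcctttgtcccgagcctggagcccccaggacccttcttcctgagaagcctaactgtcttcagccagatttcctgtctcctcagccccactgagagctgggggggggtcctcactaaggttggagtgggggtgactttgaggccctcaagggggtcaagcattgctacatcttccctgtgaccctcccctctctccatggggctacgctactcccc
Elane: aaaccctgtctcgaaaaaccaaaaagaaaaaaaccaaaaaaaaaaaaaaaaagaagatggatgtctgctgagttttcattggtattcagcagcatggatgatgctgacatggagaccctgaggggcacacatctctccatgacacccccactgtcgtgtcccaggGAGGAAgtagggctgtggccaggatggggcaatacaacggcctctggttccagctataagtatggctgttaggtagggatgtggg
Prtn3: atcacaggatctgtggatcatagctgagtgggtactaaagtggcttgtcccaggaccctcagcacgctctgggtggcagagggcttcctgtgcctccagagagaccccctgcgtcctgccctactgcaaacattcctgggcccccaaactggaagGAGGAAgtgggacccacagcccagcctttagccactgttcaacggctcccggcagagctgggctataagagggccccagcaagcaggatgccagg
Ctsg: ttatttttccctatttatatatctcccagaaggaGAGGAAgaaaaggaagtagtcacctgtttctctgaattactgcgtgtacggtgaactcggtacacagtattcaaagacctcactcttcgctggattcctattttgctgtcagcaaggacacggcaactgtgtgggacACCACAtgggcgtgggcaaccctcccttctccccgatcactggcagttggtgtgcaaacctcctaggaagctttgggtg
The windows lie at chr11:87793534-87793783 (plus strand) for *Mpo*, chr10:79886062-79886311 (plus strand) for *Elane*, chr10:79879417-79879666 (plus strand) for *Prtn3* and chr14:56102575-56102824 (minus strand) for *Ctsg*. All 4 held GAGGAA at least once and none held TTGCNNAA. *Ms4a3*, the early gene not shown, held none of the 3 motifs. The matches of *Elane* and *Prtn3*, 2 related protease genes that start 6.65 kb apart, began 85 and 95 bases before the start. *Ctsg* also held the RUNX letters.

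The 3 specific granule genes that lie on chromosome 9, *Camp*, *Ngp* and *Ltf*, are shown beside them.
Camp: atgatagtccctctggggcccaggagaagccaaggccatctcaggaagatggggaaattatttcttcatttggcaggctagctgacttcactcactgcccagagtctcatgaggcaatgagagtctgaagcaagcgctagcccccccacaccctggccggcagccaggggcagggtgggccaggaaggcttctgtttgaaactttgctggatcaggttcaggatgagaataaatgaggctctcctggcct
Ngp: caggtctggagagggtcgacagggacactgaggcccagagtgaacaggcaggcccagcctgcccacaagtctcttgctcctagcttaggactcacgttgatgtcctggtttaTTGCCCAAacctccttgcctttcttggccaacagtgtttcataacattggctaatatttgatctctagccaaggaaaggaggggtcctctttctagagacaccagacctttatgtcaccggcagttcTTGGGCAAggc
Ltf: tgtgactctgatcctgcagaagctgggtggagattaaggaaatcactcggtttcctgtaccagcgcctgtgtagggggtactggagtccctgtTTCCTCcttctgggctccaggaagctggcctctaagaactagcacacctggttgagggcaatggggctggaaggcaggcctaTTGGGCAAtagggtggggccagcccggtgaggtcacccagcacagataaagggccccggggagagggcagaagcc
Their windows are chr9:109849457-109849706 (minus strand) for *Camp*, chr9:110419558-110419807 (plus strand) for *Ngp* and chr9:111019042-111019291 (plus strand) for *Ltf*. *Ngp* held the C/EBP letters 2 times and *Ltf* 1 time, together with 1 PU.1 match, whereas *Camp* held none of the 3 motifs. The stefin pair is shown because the genes are near copies.
Stfa2: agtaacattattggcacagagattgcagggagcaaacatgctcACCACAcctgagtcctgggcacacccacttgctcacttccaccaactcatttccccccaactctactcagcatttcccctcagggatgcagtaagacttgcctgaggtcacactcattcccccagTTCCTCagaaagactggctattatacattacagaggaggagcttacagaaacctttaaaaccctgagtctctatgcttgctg
Stfa2l1: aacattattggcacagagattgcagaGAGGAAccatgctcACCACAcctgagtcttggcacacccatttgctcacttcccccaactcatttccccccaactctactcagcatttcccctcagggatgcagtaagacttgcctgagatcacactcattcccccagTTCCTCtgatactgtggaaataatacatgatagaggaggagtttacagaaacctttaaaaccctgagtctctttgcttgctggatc
These lie at chr16:36408364-36408613 (minus strand) for *Stfa2* and chr16:36156561-36156810 (plus strand) for *Stfa2l1*.

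A gene was counted as holding the letters if any of its windows did, whereas the share over all promoters counts each promoter by itself. The units are therefore unlike, and a gene with several promoters has more occasions for a match. The C/EBP letters were held by 8 of the 28 genes, against 9.56% of the 32851 promoters of the same length in the table. No early azurophil gene was among the 8, which were *Fcnb*, *Lcn2*, *Ltf* and *Ngp* of the specific granule class and *Anxa1*, *Ly6g*, *Retnlg* and *Slpi* of the mature class. With 5 genes in the early class, 0 matches is close to the share over all promoters, so it does not set that class apart. The PU.1 letters were held by 17 of 28 genes (4 of 5 early, 5 of 10 specific granule, 8 of 13 mature) against 23.3% of all promoters. The RUNX letters were held by 5 of 28 genes against 14.0% of all promoters. These counts describe letters in a window and are not binding sites.

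Whether the genes differ in level between the groups was tested with edgeR's quasi-likelihood test on expected counts, with Benjamini-Hochberg adjustment over the 14289 genes that passed the filter and a threshold of 0.05. Of the 31 genes, 30 were higher and 1, *Hp*, was lower in the MSC-derived libraries. Over all genes tested, 31.3% were called higher and 30.3% lower. The median log2 fold change of the 31 genes was 3.64, against 0.05 over all genes tested. An increase of at least 8-fold was called for 24 of the 31 and for 6.04% of all genes. In CPM (counts scaled by library size, here with TMM factors), the 3 MSC-derived libraries lay above the 3 endogenous libraries for 30 of the genes without overlap, against 38.2% of all genes. The genes together held 6.43 to 6.61% of the summed TPM of the MSC-derived libraries and 0.689 to 0.795% of that of the endogenous libraries. The fold changes from counts run higher than the ratios of the TPM values (23.7 against 17.7 for *Camp*), the first being scaled by TMM library sizes and the second by the summed level per length, and the scale is named where a value is given.

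**Figure D1:**
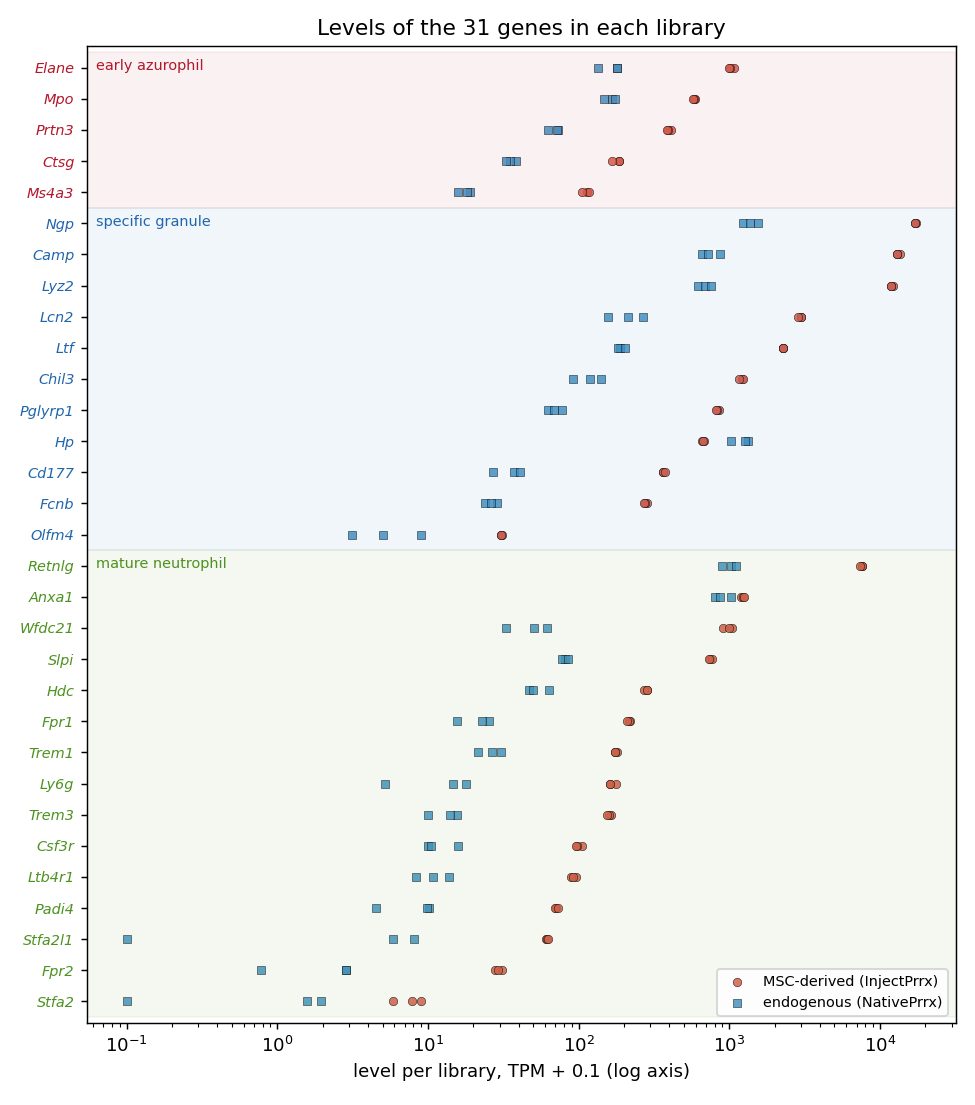
Level of each of the 31 genes in each library, in TPM + 0.1 on a log axis, with circles for the 3 MSC-derived and squares for the 3 endogenous libraries and genes grouped by class. The circles lie to the right of the squares for every gene except *Hp*, and *Ngp*, *Camp* and *Lyz2* are the 3 highest in the MSC-derived libraries.

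All 5 early azurophil genes were higher in the MSC-derived cells, by a median log2 fold change of 2.95. *Mpo*, which encodes the peroxidase that makes hypochlorous acid, was at 597, 586 and 575 TPM in the MSC-derived libraries and at 167, 174 and 148 TPM in the endogenous ones. *Elane*, neutrophil elastase, was at 1074, 1005 and 995 TPM against 134, 179 and 181 TPM. The groups did not overlap for either gene, and the replicates of each group lay close together. The log2 fold change was 2.29 for *Mpo* (SE 0.09, adjusted p = 5.31e-07) and 3.06 for *Elane* (SE 0.17, adjusted p = 3.51e-06). *Prtn3*, proteinase 3, was at 409, 391 and 387 TPM against 63.1, 72.5 and 71.8 TPM, and *Ctsg*, cathepsin G, was at 186, 186 and 166 TPM against 38.7, 35.2 and 32.8 TPM. *Ms4a3*, a membrane protein of granulocyte progenitors, was the lowest of the class in both groups, at 105 to 118 TPM against 15.8 to 18.9 TPM. It had the largest rise of the class, 3.10 on the log2 scale, and *Mpo* the smallest. *Mpo* and *Elane* were nearly level in the endogenous libraries (163 ± 13.3 and 164 ± 26.6 TPM, SD, n = 3), whereas *Elane* stood above *Mpo* in all 3 MSC-derived libraries.

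The specific granule genes held the highest levels. *Ngp*, a cathelicidin-related protein of specific granules, was at 17384, 17021 and 17078 TPM in the MSC-derived libraries and 1239, 1367 and 1553 TPM in the endogenous ones. It held rank 5 by TPM among all genes in each MSC-derived library and ranks 79 to 101 in the endogenous libraries. *Camp*, the cathelicidin peptide gene, was at 13571, 13082 and 13012 TPM against 660, 724 and 863 TPM, and its log2 fold change of 4.56 (SE 0.15, adjusted p = 2.54e-07) was the largest of the class. The groups were far apart for both genes. *Lyz2*, lysozyme, was at 12289, 11839 and 11798 TPM against 622, 690 and 762 TPM and rose by 4.54 (SE 0.13), but it is also made by macrophages and shares reads with *Lyz1*. *Lcn2*, the iron-siderophore binding lipocalin, was at 2847 to 3003 TPM against 156 to 266 TPM, with endogenous replicate 1 the lowest. *Ltf*, lactoferrin, was at 2265, 2263 and 2280 TPM against 187, 183 and 205 TPM, so that its replicates hardly differed. *Chil3*, a chitinase-like protein, was at 1206 ± 31.8 TPM against 118 ± 24.6 TPM. *Pglyrp1*, a peptidoglycan-binding protein, was at 834 ± 18.8 TPM against 69.6 ± 7.22 TPM.

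The remaining genes of the class were lower. *Cd177*, a surface protein anchored to the membrane by a lipid and bound to proteinase 3 in human neutrophils, was at 367 ± 7.17 against 35.1 ± 7.26 TPM (SD, n = 3). *Fcnb*, a ficolin of immature neutrophils, was at 278 ± 5.04 against 26.1 ± 2.52 TPM. *Olfm4*, olfactomedin 4, a specific granule protein found in a subset of neutrophils, was at 30.7, 31.04 and 30.6 TPM against 8.95, 3.06 and 4.91 TPM, and here endogenous replicate 1 was the highest. The log2 fold changes of the 10 genes that rose ran from 2.92 (*Olfm4*, SE 0.31, adjusted p = 0.000113) to 4.56, and those of 9 of them were at least 8-fold.

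*Hp*, haptoglobin, which binds free hemoglobin and is made by liver and fat as well as by granulocytes, went the other way. It was at 682, 664 and 667 TPM in the MSC-derived libraries and 1023, 1325 and 1265 TPM in the endogenous ones, a log2 fold change of -0.42 (SE 0.14, adjusted p = 0.0339). In CPM after TMM scaling the gap was narrow, with 612 as the highest MSC-derived value and 624 in endogenous replicate 1. This call was lost with limma, with a replicate block and without any 1 library other than endogenous replicate 1, with adjusted p-values of 0.0514 to 0.142, and the only other gene to lose its call at 0.05 was *Stfa2*. Leaving out endogenous replicate 1 gave -0.63 (adjusted p = 1.04e-11).

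All 15 genes of the mature class were higher in the MSC-derived cells, 13 of them by at least 8-fold, with a median log2 fold change of 3.55. *Retnlg*, a resistin-like secreted protein, was at 7587, 7580 and 7400 TPM against 1029, 901 and 1106 TPM, a change of 3.32 (SE 0.09, adjusted p = 1.47e-07), and was the most abundant gene of the class in all 6 libraries. *Anxa1*, annexin A1, a phospholipid-binding protein of many cell types, was at 1201, 1239 and 1263 TPM against 1025, 806 and 875 TPM. Its rise of 0.90 (SE 0.07, adjusted p = 1.5e-05) was the smallest of all genes that rose. *Wfdc21*, a small whey-acidic-protein domain gene, had the largest rise of the 31, 4.75 (SE 0.25, adjusted p = 2.71e-06), from 32.9, 50.5 and 61.4 TPM to 906, 1036 and 994 TPM. *Slpi*, an inhibitor of elastase and cathepsin G, was at 734 to 774 TPM against 78.2 to 84.9 TPM, and *Hdc*, the enzyme that makes histamine, at 271 to 287 TPM against 46.7 to 63.4 TPM.

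Receptors and the surface marker of the mature stage were at lower levels. *Csf3r*, the receptor for G-CSF, the growth factor of neutrophils, was at 96.5 to 105 TPM against 9.93 to 15.9 TPM. *Ltb4r1*, the leukotriene B4 receptor, was at 88.9 to 95.7 TPM against 8.28 to 13.8 TPM. The formyl peptide receptor genes *Fpr1* and *Fpr2*, which start 3.89 kb apart, were at 209 to 219 TPM against 15.6 to 25.3 TPM and at 27.8 to 30.9 TPM against 0.68 to 2.78 TPM. *Trem1* and *Trem3*, activating receptors of myeloid cells, were at 174 to 181 TPM against 21.4 to 30.7 TPM and at 155 to 163 TPM against 9.88 to 15.5 TPM. *Ly6g*, the surface protein used to identify mouse neutrophils, was at 162, 177 and 163 TPM against 5.11, 17.8 and 14.6 TPM (log2 fold change 4.12, SE 0.42, adjusted p = 9.48e-05). *Padi4*, which converts arginine to citrulline in histones, was at 71.1, 69.9 and 73.1 TPM against 4.42, 10.1 and 9.73 TPM. The groups did not overlap for any of these genes.

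The 2 stefins, inhibitors of cysteine proteases, rested on few reads. *Stfa2l1* had 275, 270 and 260 counts in the MSC-derived libraries and 0, 18 and 26.0 counts in the endogenous ones. *Stfa2* had 27.1, 35.1 and 38.4 counts against 0, 6 and 4.99 counts. The standard errors, 0.83 for *Stfa2l1* and 0.90 for *Stfa2* on the log2 scale, were the largest of the 31, and *Stfa2* (log2 fold change 3.08, adjusted p = 0.0197) lost its call when any 1 MSC-derived library or endogenous replicate 3 was left out. Their annotated transcripts are 95.7% identical over 373 aligned bases. Estimated counts were not whole numbers in 4 of the 6 libraries for each, meaning that reads were divided between genes, so the split between this pair is uncertain. The same holds for *Lyz2* in all 6 libraries, which is 96.0% identical to *Lyz1*, and for *Csf3r* in all 6.

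**Figure D2:**
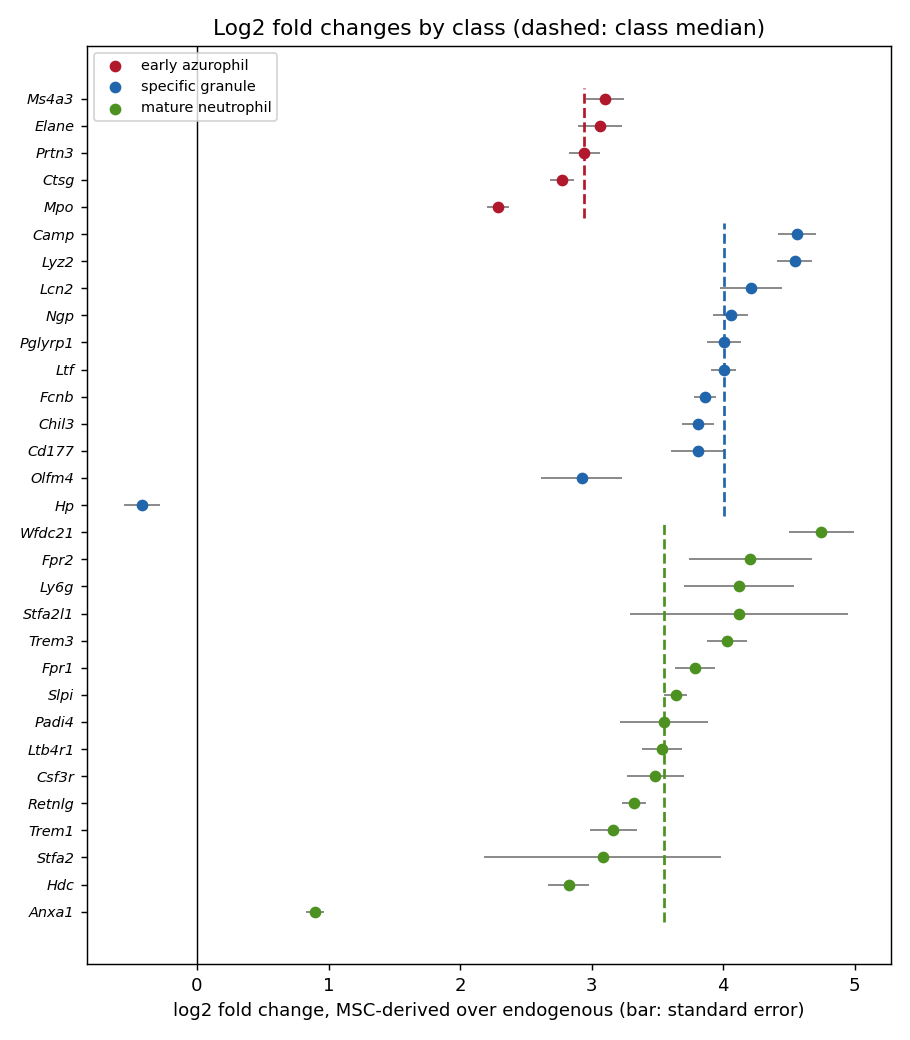
Log2 fold change of each gene, MSC-derived over endogenous, with its standard error from edgeR, sorted within class, and class medians as dashed lines (2.95 early azurophil, 4.004 specific granule, 3.55 mature). All 5 early genes lie between 2.29 and 3.10, and *Hp* is the only gene left of 0.

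The rise was smaller in the early azurophil class than in most later genes. Of the 26 specific granule and mature genes, 21 had a larger log2 fold change than *Ms4a3*, the highest early gene, and the 5 that did not were *Hp*, *Anxa1*, *Hdc*, *Olfm4* and *Stfa2*. Without endogenous replicate 1 the count was 22 of 26. In each library the summed TPM of the later genes was 26.8 to 27.9 times that of the early genes in the MSC-derived libraries and 14.0 to 16.6 times in the endogenous ones, so the groups did not overlap. An exact permutation test of 3 libraries against 3 cannot go below p = 0.1, and the ratio is given as a description with no test. The early genes made up 3.47 to 3.60% of the summed TPM of all 31 genes in the MSC-derived libraries and 5.67 to 6.65% in the endogenous ones.

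The other classes divided differently. The specific granule share was 78.0 to 78.5% against 60.4 to 65.6%, and the mature share was 17.9 to 18.5% against 27.7 to 33.6%. *Hp* and *Anxa1* weigh on the endogenous shares, and *Lyz2* on those of the MSC-derived libraries. Without these 3 genes, a choice made after the data were seen, the early share was 4.41 to 4.58% against 8.93 to 10.9%, the specific granule share 74.5 to 75.0% against 59.6 to 62.4% and the mature share 20.4 to 21.0% against 27.1 to 30.5%, still without overlap. *Retnlg* stayed in all of these shares and weighs heavily on the mature class. Its mean was 7522 TPM in the MSC-derived libraries, where the mature genes summed to 11737 to 11982 TPM. In the endogenous libraries its mean was 1012 TPM, of sums of 1995 to 2321 TPM. *Anxa1*, which is part of these sums, had a mean of 1234 TPM in the MSC-derived and 902 TPM in the endogenous libraries. Shares without *Retnlg* alone were not computed, so how far the smaller mature share rests on *Retnlg* was not tested. Ratios within a library show the order of the shares for some pairs and not for others. *Camp* over *Mpo* was 22.3 to 22.7 against 3.96 to 5.83, and *Ltf* over *Elane* was 2.11 to 2.29 against 1.02 to 1.40. *Retnlg* over *Elane* overlapped, at 7.06 to 7.54 against 5.05 to 7.70.

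**Figure D3:**
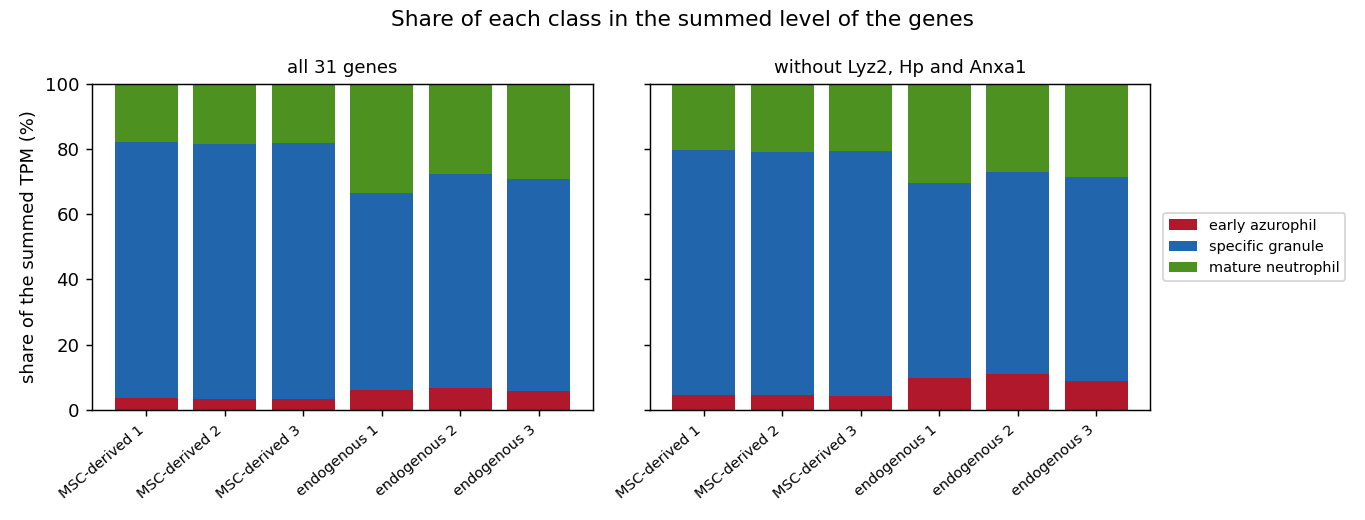
Share of each class in the summed TPM, per library, for all 31 genes (left) and without *Lyz2*, *Hp* and *Anxa1* (right). The specific granule share is larger and the early and mature shares smaller in each of the 3 MSC-derived libraries than in each of the 3 endogenous libraries.

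The endogenous libraries differed among themselves. Endogenous replicate 1 had 3449 genes at 0 counts, against 1323 to 1936 in the other 5, while the total counts of all 6 libraries, 22060630 to 24881800, were alike. Its TPM was the lowest of the 3 endogenous libraries for 19 of the 31 genes and the highest for 8, and was the lowest for 35.9% of all genes tested. The ratio of its TPM to the mean of replicates 2 and 3 was 0.74 for *Elane* and 1.04 for *Mpo*. It was 0.32 for *Ly6g*, 0.45 for *Padi4* and 0.24 for *Fpr2*, with *Stfa2* and *Stfa2l1* at 0, but 1.46 for *Ltb4r1*, 1.31 for *Fpr1*, 1.298 for *Trem3* and 2.25 for *Olfm4*. The mature genes thus lay on both sides of the other endogenous libraries. Without it, all 31 genes kept their direction and their call, and the class medians were 2.78 (early azurophil), 3.84 (specific granule) and 3.49 (mature).

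**Figure D4:**
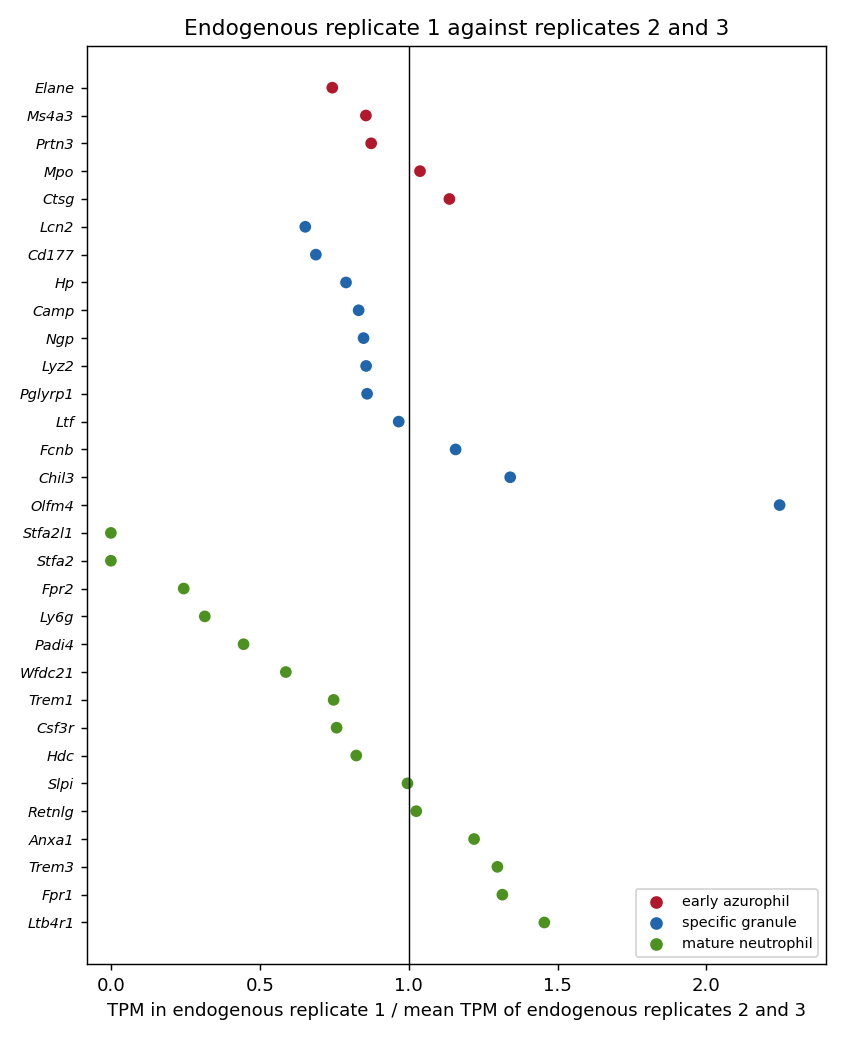
TPM in endogenous replicate 1 divided by the mean TPM of endogenous replicates 2 and 3 for each gene, coloured by class, with a line at 1. The mature genes spread from 0 for *Stfa2* and *Stfa2l1* to 1.46 for *Ltb4r1*, while the early genes stay between 0.74 and 1.14.

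Other genes linked to neutrophils, including signals that act on them, moved mostly the same way. Of 51 further genes on 3 lists, 50 were tested (*Bpi* was not), and 42 were higher and 5 lower. Among the 10 transcription factors 6 were higher and 3 lower. *Spi1* (PU.1) had the largest rise, 3.99, from 30.5 ± 6.81 to 356 ± 15.4 TPM (SD, n = 3), *Cebpe* (C/EBPε) rose by 3.95 and *Cebpb* by 0.80, the smallest. Of the other C/EBP genes listed, *Cebpa* rose by 0.85, whereas *Cebpd* fell by 1.36, from 135 ± 11.5 to 38.9 ± 1.08 TPM. *Runx1*, which other tissues express too, fell by 1.87 on the log2 scale, and *Xbp1* fell by 0.47. Among the granule and oxidase genes all 19 tested were higher. *S100a8*, a subunit of the cytosolic calcium-binding protein calprotectin, rose by 4.63 and stood at 96276 ± 4699 TPM against 5180 ± 1138 TPM, and *Gsr*, glutathione reductase, rose by 1.82. Among 21 genes of signals and trafficking 17 were higher and 2 lower, with *Pirb*, an inhibitory receptor, at 5.49. *Cxcl12*, the chemokine that holds neutrophils in the marrow through CXCR4, fell by 5.12, from 4569 ± 385 to 109 ± 1.96 TPM. *Cxcl1* fell by 2.05, and *Csf3* (0.39, adjusted p = 0.278) and *Cxcl5* (-0.89, adjusted p = 0.325) did not pass the test.

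**Figure D5:**
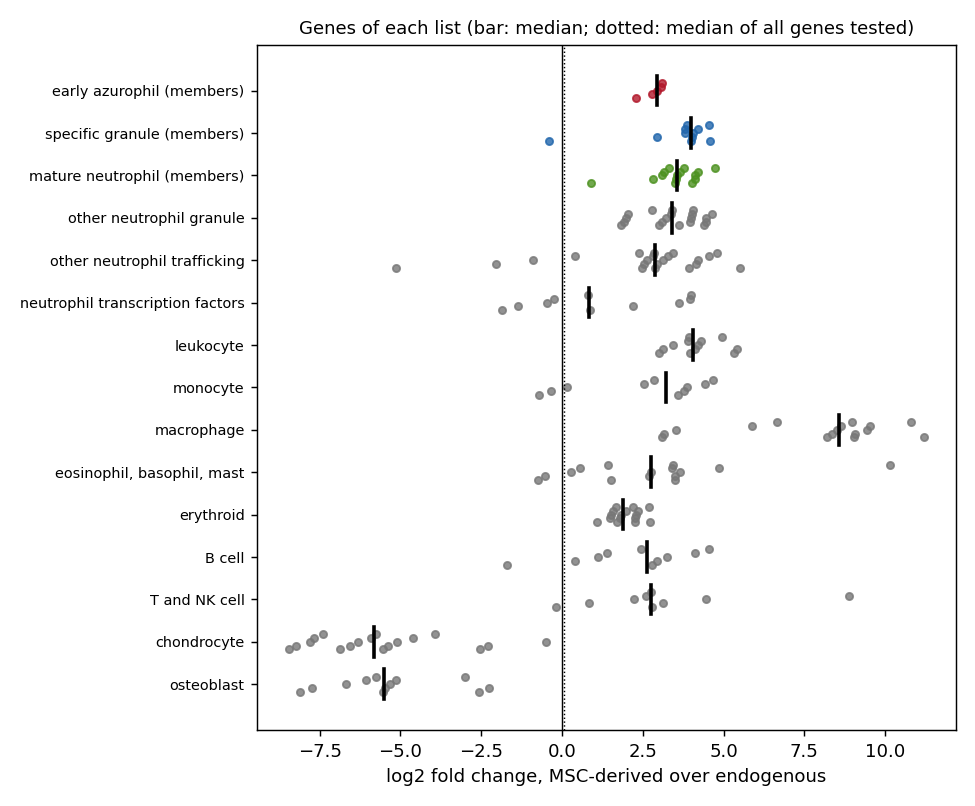
Log2 fold change of each tested gene of each list, with a black bar at the list's median and a dotted line at the median of all genes (0.05). The medians of the 3 classes (2.95, 4.004 and 3.55) lie below those of the pan-leukocyte list (4.04) and the macrophage list (8.57) and above that of the erythroid list (1.90), while the medians of the chondrocyte and osteoblast genes lie below 0.

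Markers of other blood cells were higher as well. All 12 pan-leukocyte markers were higher, with a median of 4.04 and a summed level of 15227 to 15764 TPM against 747 to 929 TPM. They ran from *Cytip* at 3.004 to *Fcer1g* at 5.42. *Ptprc* (CD45) rose by 4.20, and of the 31 genes 8 rose by more than that list's median, as did 476 of all 14289 genes tested. All 16 macrophage markers were higher, with a median of 8.57 and a sum of 15914 to 16256 TPM against 225 to 242 TPM. They ran from *Lgmn* at 3.10 to *Itgad* at 11.20, and in the endogenous libraries 2 of the 16 were at 0 counts in replicate 1 and 1 in replicate 2. The 16 erythroid markers were higher too, by a median of 1.90 (*Sptb* 1.10 to *Ahsp* 2.73), with sums of 80135 to 82395 TPM against 18511 to 24844 TPM.

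The other lists were mixed. Of 10 monocyte markers 7 were higher and 1 lower (*Irf8* 4.66, *Fn1* -0.72), with sums of 2434 to 2517 TPM against 1577 to 1667 TPM. Of 15 tested markers of eosinophils, basophils and mast cells 10 were higher and 1 lower (*Ccr3* 10.14, *Gata2* -0.73), and their sums were 2440 to 2504 TPM against 227 to 291 TPM. B cell markers were higher for 6 and lower for 1 of 10 (*Cd79b* 4.54, *Ebf1* -1.69), with sums of 283 to 302 TPM against 58.4 to 64.0 TPM. T and NK cell markers were higher for 7 of 9 tested (*Cd3d* 2.24 to *Cd4* 8.88), with sums of 206 to 217 TPM against 27.6 to 31.5 TPM. Most of the MSC-derived sum was *Nkg7* and *Cd4*, at means of 127 and 73.0 TPM, while *Cd3d* was at 3.13 TPM. All 18 chondrocyte markers (*Cnmd* -8.45, *Prg4* -0.51) and 11 of 12 osteoblast markers (*Dmp1* -8.11, *Spp1* -2.56) were lower. The part of these cells in the neutrophil gene values was not tested.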

How the data were processed

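The 6 libraries were made from total RNA with a TruSeq kit. The study's methods give SOAPnuke for read filtering, HISAT2 and Bowtie2 for alignment and RSEM for quantification by the authors, whereas the submitters' processing notes name Bowtie2 2.2.5, RSEM 1.2.12 and mm9. The authors deposited expected counts from RSEM, FPKM, TPM and a signal that equals the count times 1 factor per library. FPKM summed to 808701 to 813572 in the MSC-derived and 504768 to 573603 in the endogenous libraries. The 24 columns were mapped to samples by name.

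Expected counts, 20.6% of which were not whole, were rounded. The principal test in R 4.3.3 was that of edgeR 4.0.16 (TMM, filterByExpr, glmQLFit and glmQLFTest, no block). Alternatives were DESeq2 1.42.0 and limma 3.58.1 (on FPKM in log2 with 1 or 0.1 added), with 2 normalizations, 2 filters, the block, each library left out and a threshold of 0.001. The test was tried on simulated counts. Levels are TPM. Figures used matplotlib 3.10.9, and transcripts were aligned with Biopython 1.88 (GENCODE vM21).

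The genes and lists were chosen with earlier results of these data known. Genes named are all 31, of each other list the called gene with the largest and the one with the smallest change, *Prrx1* and *Ptprc*. *Bpi*, *Cebpa*, *Cebpb*, *Cebpd*, *Cebpe*, *Csf3*, *Cxcl1*, *Cxcl5*, *Nkg7* and *Xbp1* were named after their values were seen. The smallest level detectable, 3 counts, was 0.121 to 0.136 CPM, which covers counting error only.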

Additional observations from a re-analysis of the deposited data

How the results depend on the processing

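Of the 31 genes, 28 to 30 were called higher under every setting tried, and no direction changed. *Hp*, the only gene called lower, gave a count of 0 in the edgeR fit with the replicate number as a block, in both limma fits, at a threshold of 0.001, and in 5 of the 6 fits that left out a library, so the leave-one-out counts ran from 0 to 1. At an unadjusted p of 0.05 the count of genes lower was 1 with the block and 0 with limma and in those 5 fits. It was also 1 in the principal fit, to which the threshold of 0.001 was applied, and DESeq2 called 1. The adjusted p of *Hp* was 0.0514 with the block, 0.137 and 0.142 with limma, and 0.0929 to 0.109 in those 5 fits. The call was kept only without endogenous replicate 1 among the fits that left out a library.

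*Stfa2* had adjusted p-values of 0.0645 to 0.0908 without an MSC-derived replicate and 0.0528 without endogenous replicate 3. At a threshold of 0.001 the counts over all genes were 2134 higher and 2380 lower, in place of 4468 and 4333, and *Stfa2l1*, *Stfa2* and *Hp* were not called. The cause was not tested.

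With the replicate block, 30 of the 31 genes and 4103 of all genes were called higher. Same-numbered libraries of the groups come from different animals. The deviations of same-numbered libraries correlated by 0.0129, 0.0022 and 0.0178, although each MSC-derived library correlated best with its own number. The median over all genes moved by more than 0.1 only with limma on log2(FPKM + 0.1), from 0.05 to 0.19. In shares of summed counts in place of TPM, the early azurophil genes made up 4.81 to 4.97% in the MSC-derived and 7.64 to 9.14% in the endogenous libraries.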
